A study of Mus musculus with 5 samples.

Results

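The plakin cytolinker mRNAs Macf1, Dst and Plec were followed through RNA that came down with an anti-HA antibody in mouse hippocampus. The 3 genes were chosen by name, with their read counts in these libraries already known, from 4713 genes that had a called region on them in at least 1 of 4 deposited region lists. A region counted for a gene where the deposited annotation placed it inside the gene, across 1 of its ends or around it. The 3 genes held 141 of 16828 regions, summed over the lists. Because the same reads chose the genes, their values are given as a description, with no test.

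Plakins are very large proteins that tie the actin, microtubule and intermediate filament networks to each other and to membrane junctions. MACF1 and dystonin, the product of Dst, are the spectraplakins: they pair an actin-binding end with a microtubule-binding end across a long rod of spectrin repeats, and both act in neurons, where they take part in axon growth and the upkeep of microtubules. Plectin, the product of Plec, joins intermediate filaments to actin and to adhesion sites, and is made in glia and many other cell types.

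The study looked for mRNAs bound by CYFIP1, which binds the fragile X protein FMRP and also sits in the WAVE complex that drives actin branching. All mice were C57BL/6, and the labels give no age or sex. Anti-HA was used on 2 knock-in hippocampus samples (HA 1 and HA 2), control IgG on the same numbered pair (IgG 1 and IgG 2), and anti-HA on 1 wild-type sample, which makes 5 libraries in 3 groups. The labels call the mice knock-in and wild-type without naming the tagged protein, and they do not say whether animals were pooled or whether the numbered HA and IgG samples came from 1 lysate. Below, mouse 1 and mouse 2 stand for the knock-in samples of those numbers. The SD between them may be technical and is not known to be a spread between animals. Each list sets 1 HA library over 1 control: HA 1 over IgG 1, HA 2 over IgG 2, and HA 1 and HA 2 each over the same wild-type library.

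The lists over IgG held 4191 (mouse 1) and 1920 (mouse 2) regions, and those over wild type 5355 and 5362. Their HA reads came to 99575, 64055, 154408 and 166760, and their control reads to 25747, 31872, 181527 and 180957. The lists hold called regions only, and total library depth cannot be read from them. Cyfip1 itself lay at 31.5-fold (mouse 1) and 56.8-fold (mouse 2) above the median region over IgG, and at 10.02-fold and 8.50-fold over wild type. The list of HA 2 over IgG 2 was uneven: 85.7% of its regions were on chromosomes 12 and 15, against 29.3% to 30.6% in the other 3, and it had 75 regions on chromosome 4 and 0 on chromosome 1. Whether that list is complete is unknown, which bears on its median ratio and on every coverage and fold of mouse 2 over IgG. Cell type could hardly be checked from called regions: of 6 neuronal markers 1, 0, 2 and 1 had a region in the 4 lists, of 6 astrocyte markers 2 in each, and of 4 endothelial markers none.

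To get a fold, the HA and control reads of a gene were each summed over its regions, and their ratio was divided by the median ratio of all regions of that list with at least 20 reads in both libraries together. That median was 2.89 over IgG in mouse 1, 0.947 over IgG in mouse 2, and 1.41 and 1.75 over wild type. Intervals are exact Clopper-Pearson 95% counting intervals. They cover counting error only, since PCR copies are not independent molecules.

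Macf1 lies on the minus strand at chr4:123349633-123684360 (mm10), with 106 exon blocks and 31.4 kb of exonic sequence. Many of its regions were small enough to hold a single exon, so the sequence under them can be shown. The Macf1 sequences printed here lie in 250-base regions that had the same coordinates in all 4 lists; the first is a whole exon, and the second is the 149 bases of an exon that fall inside its region. The Dst and Plec sequences are whole exons inside regions called over wild type in mouse 1, for Dst the coding region with the lowest ratio and for Plec the one with the most wild-type reads. All are coding sequence of the mRNA strand, 5′ to 3′, from GENCODE M21, and none holds UTR. Capitals mark 4 tetramers that published work links to FMRP binding. They are ACTG, its neighbour in spelling ACTT, and the pair that ends in GGA, which is AGGA or else TGGA. Only the mRNA strand was searched, and matches may overlap.
Macf1, chr4:123444835-123444952, minus strand: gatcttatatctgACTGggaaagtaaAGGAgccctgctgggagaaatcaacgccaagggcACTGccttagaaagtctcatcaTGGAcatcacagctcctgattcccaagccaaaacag
Macf1, chr4:123448102-123448250, minus strand: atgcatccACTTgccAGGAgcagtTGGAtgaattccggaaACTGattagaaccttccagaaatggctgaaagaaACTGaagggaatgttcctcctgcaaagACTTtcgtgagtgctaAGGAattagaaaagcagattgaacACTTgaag
Dst, chr1:34278020-34278139, plus strand: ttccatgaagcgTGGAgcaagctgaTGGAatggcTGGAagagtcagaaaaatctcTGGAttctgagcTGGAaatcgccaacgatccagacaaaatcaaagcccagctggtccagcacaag
Plec, chr15:76190459-76190586, minus strand: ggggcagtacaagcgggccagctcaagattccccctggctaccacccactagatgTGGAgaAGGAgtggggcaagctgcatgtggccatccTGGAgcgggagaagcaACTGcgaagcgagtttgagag

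The sequences held 4, 8, 5 and 4 such tetramers, in that order. These short motifs are common: 91.4% of 118-base windows of the longest protein-coding transcripts held at least 1. Over the longest protein-coding transcript, Macf1 had 29.2 per kb, Dst 27.2 and Plec 28.6, against a median of 22.7 over 21746 genes. That placed the 3 mRNAs at the 91.4, 84.5 and 89.8 percentiles. A match is a description of the letters and not a binding site.

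The first Macf1 exon above shows the pattern of the gene in small. Its region held 10 and 7 reads in HA 1 and HA 2, 0 and 2 in IgG 1 and IgG 2, and 22 in wild-type HA. The second had 10 and 8 HA reads, 1 read in each IgG library and 23 in the wild-type library. In both, the HA libraries stood above IgG and below wild type.

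Macf1 was high over IgG and low over wild type. Over IgG it had 1319 HA and 174 IgG reads in mouse 1, over 32 regions, and 484 HA and 166 IgG reads in mouse 2, over 15 regions. Both HA libraries thus held several times the reads of their own IgG library. The read ratios were 7.58 (interval 6.47 to 8.93) and 2.92 (2.44 to 3.50). Relative to the list medians these were 2.62- and 3.08-fold, a mean log2 fold of 1.51 ± 0.17 (SD, 2 mice). Macf1 stood above 94.0% and 94.8% of the 1094 and 716 genes with at least 20 reads. Of these genes 9.69% and 8.8% lay at 2-fold or more, and 60.7% and 64.8% lay below 1-fold.

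The value of mouse 2 depended on what it was set against. The other 12 regions of chromosome 4 with at least 20 reads in that list had a median ratio of 3.56, and relative to them Macf1 was at 0.820-fold. In mouse 1 the same scale, from 122 regions, gave 2.37-fold. Of the 12 chromosome 4 genes with at least 20 reads in the list of mouse 2, 5 were lower than Macf1. With the pooled ratio of all reads as the scale, the mean over both mice was 1.69-fold, from 1.96 and 1.45.

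Over wild type, Macf1 had 1353 HA 1 reads against 4349 wild-type reads in 33 regions, and 1349 HA 2 reads against 4329 wild-type reads in 35 regions. The wild-type library held 3.21 times the reads of either HA library. The ratios were 0.311 (0.292 to 0.331) and 0.312 (0.293 to 0.331). Against the list medians the folds were 0.220 and 0.178, a mean log2 fold of -2.34 ± 0.22 (SD, 2 mice with 1 shared control). Of 1932 and 1671 genes, 22 and 16 were lower. Genes at 0.25-fold or less made up 1.4% and 1.44% of all, and genes below 1-fold 36.6% and 38.6%. By HA reads Macf1 ranked 18th and 15th in these lists, so its low fold came with many HA reads and still more wild-type reads.

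The shared wild-type library bears on every value over wild type: the spread over the mice holds no variation of the control, and its genotype and its quality as 1 library cannot be told apart. In this bulk tissue, fewer cells of a type and less RNA per cell cannot be told apart either. No input library was among the samples, so recovery with the antibody and the amount of an mRNA in the tissue cannot be told apart.

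**Figure D1:**
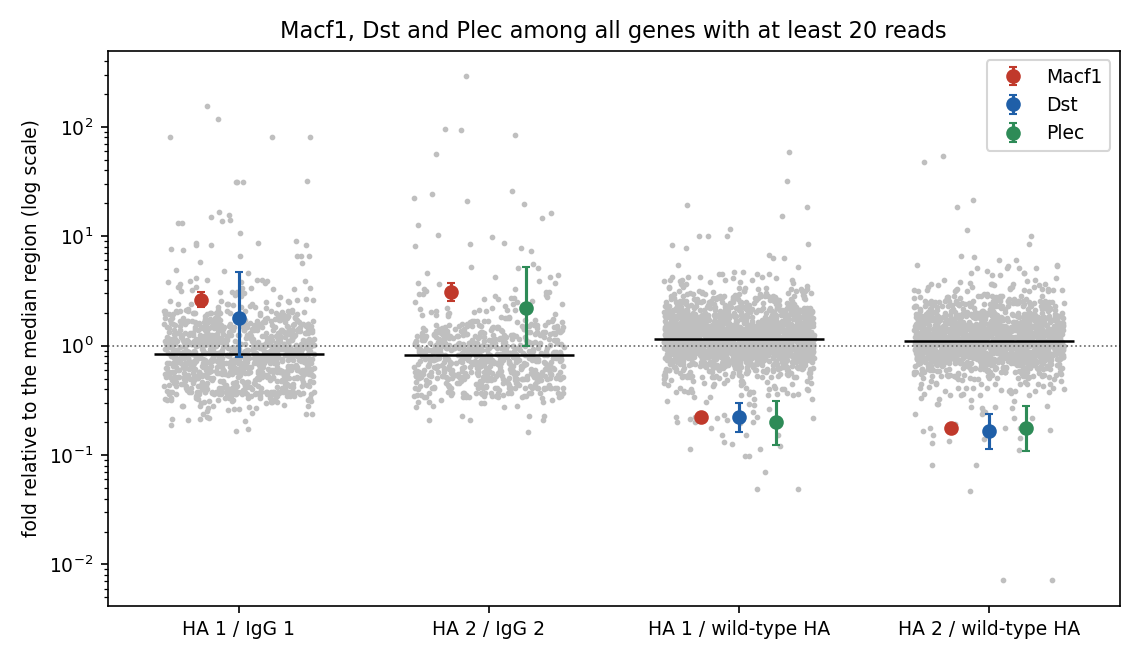
Fold relative to the median region (log axis) of every gene with at least 20 reads (grey points, spread sideways at random), in the 4 lists; black bars are gene medians, and coloured points with bars are Macf1, Dst and Plec with 95% counting intervals. The plakins lie above the gene median over IgG, where Dst is missing in mouse 2 and Plec in mouse 1, and between 0.167- and 0.223-fold over wild type.

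All 5 libraries can be set side by side in the 9 Macf1 regions whose coordinates were the same in all 4 lists. Summed over these, HA 1 had 336 reads, HA 2 367, IgG 1 41, IgG 2 121 and wild-type HA 1097. Wild-type HA was the highest library in 9 of 9 regions, and both HA libraries were above both IgG libraries in 9 of 9. Of the other 33 regions found in all lists, wild-type HA was highest in 4, and the HA pair lay above both IgG libraries in 24. The wild-type sum for Macf1 was 3.26 and 2.99 times those of HA 1 and HA 2, against 1.17 and 1.15 times in the other regions. Over IgG 1 and IgG 2, the wild-type anti-HA library held 26.8 and 9.07 times the Macf1 reads, against 6.93 and 4.63 times elsewhere. The order for Macf1 was therefore wild-type HA, then the HA pair, then IgG, without overlap of the 3 groups. The HA pair was close, with an HA 1 to HA 2 ratio of 0.916 for Macf1 and 0.985 in the other regions. The IgG pair was less close, with an IgG 1 to IgG 2 ratio of 0.339 for Macf1 and 0.668 in the other regions. IgG 2 had more reads than IgG 1 in 7 of 9 Macf1 regions and in 24 of the 33 others. These are raw reads of libraries of unknown depth, so the other regions serve as the comparison. No region of Dst or Plec was in all 4 lists.

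**Figure D2:**
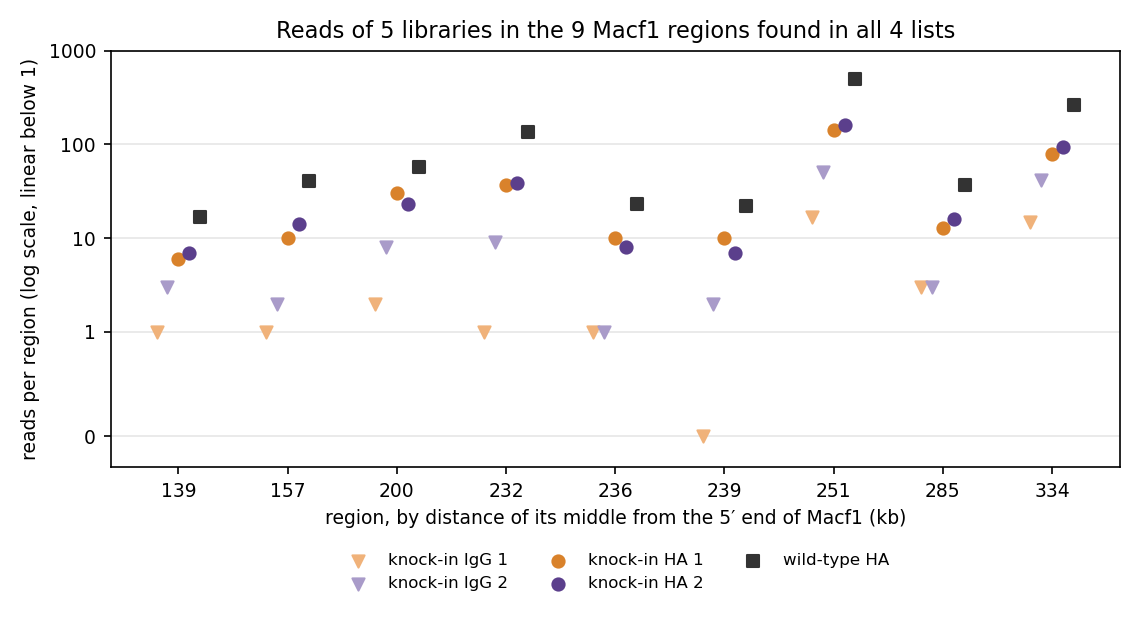
Reads (log axis, linear below 1) of each of the 5 libraries in the 9 Macf1 regions found with the same coordinates in all 4 lists, ordered by distance from the 5′ end of the gene in kb. Wild-type HA (squares) is highest in all 9 regions, the knock-in HA libraries (circles) come next and the IgG libraries (triangles) are lowest.

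The low ratio was seen in each called region of Macf1. Every Macf1 region touched coding exons. Over wild type the region ratios ran from 0.125 to 0.714, with a median of 0.308, in mouse 1, and from 0.167 to 0.667, with a median of 0.319, in mouse 2. HA was below wild type in 33 of 33 and 35 of 35 regions. The counting interval of 31 of 33 and of 32 of 35 regions held the ratio of the whole gene, so most regions did not differ from it beyond counting error. Over IgG, the ratios ran from 1.60 to 37.0 in mouse 1, over the regions with an IgG read, and from 1.65 to 8 in mouse 2. HA was above IgG in 32 of 32 and 15 of 15 regions.

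Over the 3 genes, 41 of 41 and 40 of 40 regions that touched coding sequence had fewer HA than wild-type reads. Among all coding regions of those lists, 11.1% and 7.67% did. Macf1 held 33 of the 41 and 35 of the 40, and regions of 1 mRNA are not separate observations. Over IgG, 36 of 36 and 16 of 16 plakin coding regions had more HA than IgG reads, beside 95.5% and 54.4% of all coding regions. In mouse 1 that share is near the background and is no result about the plakins. In mouse 2, 15 of the 16 regions were of Macf1 on chromosome 4. The other regions of that chromosome with at least 20 reads had a median ratio of 3.56. The 54.4% comes from a list mostly on chromosomes 12 and 15 and is not a matched background, so this share is no result either.

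**Figure D3:**
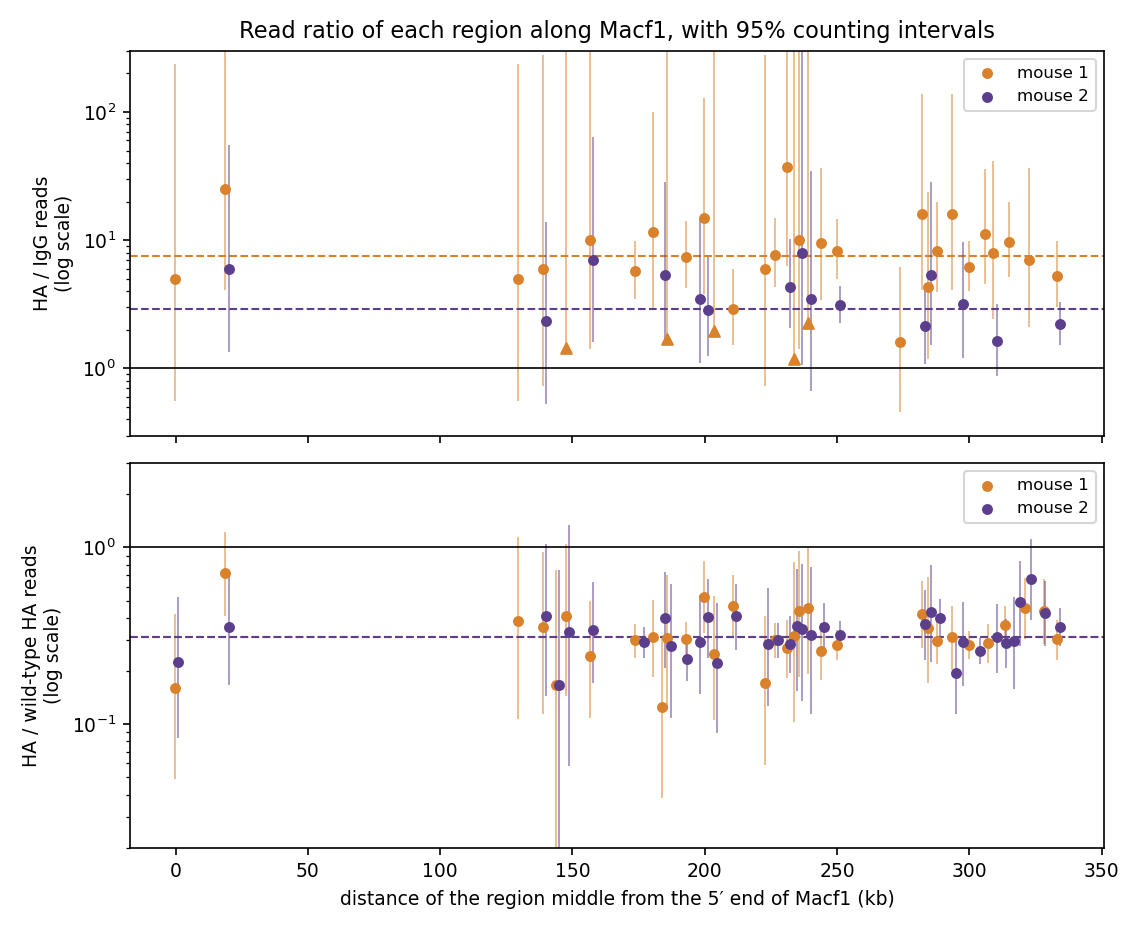
Ratio of HA to IgG reads (top) and of HA to wild-type HA reads (bottom), on log axes, for each Macf1 region by distance of its middle from the 5′ end of the gene in kb; vertical lines are 95% counting intervals, dashed lines the ratio of the whole gene, and triangles mark the lower bound of regions without an IgG read. All regions lie above 1 over IgG and below 1 over wild type, in both mice.

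A long stretch near the 5′ end of Macf1 had no region. Over wild type in mouse 1 the middles of the first regions lay 0.2345 and 19.5 kb from the 5′ end, and the next was at 130.0 kb. Over wild type the regions covered 77.8% and 77.4% of the exonic bases, and 86.3% of the length called in mouse 1 and 93.1% of that in mouse 2 was shared, with 16 identical regions. Over IgG they covered 87.1% of exonic bases in mouse 1 and 24.0% in mouse 2. Of the IgG length, 96.5% of that of mouse 2 lay inside that of mouse 1, and 16.8% the other way round. Regions over wild type held the 5′ ends of 9 of 15 annotated protein-coding transcripts in each mouse.

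Reads were not even over the exons. The region with the most wild-type reads, chr4:123432001-123435250, had 141 and 160 HA reads, 17 and 51 IgG reads and 502 wild-type reads. It holds nearly all of a 1472-base coding exon, and its wild-type reads came to 255 per kb of exon. The largest Macf1 exon of 5361 bases, at chr4:123471007-123476367, lay in a region with 38 and 33 HA and 81 wild-type reads, or 15.02 and 15.1 wild-type reads per kb of exon. A further exon of 4791 bases, at chr4:123407438-123412228, was called only over IgG in mouse 1, with 8 HA and 5 IgG reads. Of the 5 Macf1 exons over 1 kb, the longest pair was thus the thinnest covered over wild type.

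Dst carries an exon of the same length, 1472 bases, at chr1:34227775-34229246, and it had no region in any list. The stretch of both exons with the most identical positions is printed to show how far the paralogous sequences differ. It spans bases 1236 to 1355 of each exon, and capitals mark the 71 of 120 positions where both have the same base.
Macf1, chr4:123432115-123432234, minus strand: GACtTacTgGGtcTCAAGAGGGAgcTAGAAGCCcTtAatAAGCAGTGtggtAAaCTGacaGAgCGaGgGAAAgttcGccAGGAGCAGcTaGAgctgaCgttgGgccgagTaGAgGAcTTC
Dst, chr1:34229010-34229129, plus strand: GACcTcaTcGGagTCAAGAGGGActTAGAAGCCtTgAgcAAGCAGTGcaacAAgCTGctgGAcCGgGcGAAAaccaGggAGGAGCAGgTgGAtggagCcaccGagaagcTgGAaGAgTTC

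Aligned over their length, the exons were identical at 793 of 1467 aligned bases, or 54.1%. The longest run of identical bases at the same position was 11. Among all annotated transcripts, Macf1, Dst and Plec shared 0 runs of 50 bases on the mRNA strand, 50 being the number of sequencing cycles. Within these spliced transcripts, no run of that length could come without a mismatch from more than 1 of these genes. Introns and the opposite strand were not searched.

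Dst, at chr1:33908225-34308661 on the plus strand, has 41.2 kb of exonic sequence and far fewer reads. Over IgG in mouse 1 it had 36 HA and 7 IgG reads in 6 regions, a ratio of 5.14 (2.26 to 13.7) and a fold of 1.78. The interval of the fold, 0.780 to 4.73, includes 1, so Dst was not distinguished from the median region at this depth. The list of mouse 2 over IgG had no region on chromosome 1 and could not show it.

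Over wild type Dst had 58 HA 1 reads against 184 wild-type reads in 9 regions, and 40 HA 2 reads against 137 in 5 regions. Both HA libraries were thus about as far below wild type as for Macf1. The ratios were 0.315 (0.230 to 0.426) and 0.292 (0.200 to 0.418), and the folds 0.223 and 0.167, a mean log2 fold of -2.37 ± 0.30 (SD, 2 mice with 1 shared control). Of 337 and 388 chromosome 1 genes with at least 20 reads, 0 were lower in either mouse.

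The regions of Dst differed between the mice and by what they touched. None had the same coordinates in both mice, and the shared length was 26.3% of that of mouse 1 and 16.9% of that of mouse 2. On coding sequence, the 6 regions of mouse 1 had 51 HA reads beside 182 of wild type, and the 3 of mouse 2 had 36 beside 135. The lowest ratio was that of chr1:34276821-34278255, which holds the exon printed above, with 7 HA and 49 wild-type reads. A few thin regions did not have HA below wild type. Of those that touched an exon outside coding sequence, chr1:34121431-34122250 held 2 reads of HA and 2 of wild type in mouse 1, and chr1:34121636-34122045 had 2 and 1 in mouse 2. Those that touched no exon had 3 HA and 0 wild-type reads at chr1:34220856-34222290, 2 and 0 at chr1:34258986-34259805, and, in mouse 2, 2 and 1 at chr1:34239101-34239715.

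The authors' adjusted p below 0.05 fell on those thin regions in mouse 1 and, in mouse 2, also on a better-read region. The latter was chr1:33897981-33909050, with 20 HA and 57 wild-type reads. In the authors' deposited table of mouse 1, the 2 Dst regions with an adjusted p below 0.05 were the pair without a wild-type read. With only such regions, the fold of Dst was 1.18 in mouse 1, against the floor of 3 wild-type reads, and 0.232 in mouse 2. In mouse 1, 0 of the 8 coding regions of Dst and Plec passed that limit in the authors' deposited table, and in mouse 2 1 of 5 did. For Macf1, all 33 and 34 of 35 regions passed in the authors' deposited tables although HA was below wild type in each, beside 82.3% and 78.8% of all regions of those lists, so presence in a list and a low adjusted p did not mean more HA than wild-type reads.

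Parts of Dst under regions included the starts of several isoforms. In mouse 1, chr1:34005606-34006220 held the 5′ ends of 4 annotated transcripts, with 5 HA, 1 IgG and 19 wild-type reads. In mouse 2, chr1:34011346-34011960 held those of 3 protein-coding transcripts, with 8 HA and 33 wild-type reads. Also in mouse 2, chr1:33897981-33909050 crossed the start of the gene with 20 HA and 57 wild-type reads and also overlaps Bend6; without it the fold of mouse 2 was 0.143. The exon of 5292 bases at chr1:34187972-34193263 was covered over 2665 bases in mouse 1, by 13 HA reads beside 28 of wild type. In mouse 2 it was covered over 5209 bases, by 8 HA reads beside 45 of wild type. The longest exon, of 6109 bases, had no region.

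Plec, at chr15:76170974-76232574 on the minus strand, has 18.1 kb of exonic sequence. Over IgG it had no region in mouse 1, and 1 region with 21 HA and 10 IgG reads in mouse 2. That ratio of 2.10 (0.947 to 4.99) was 2.22-fold, with an interval of 1.00 to 5.28 that reaches the list median. With the pooled scale the fold was 1.04.

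Over wild type Plec had 25 HA 1 reads against 89 wild-type reads in 3 regions, and 25 HA 2 reads against 81 in 2 regions. The ratios, 0.281 (0.173 to 0.442) and 0.309 (0.189 to 0.488), again put both HA libraries below wild type. The folds were 0.199 and 0.176, a mean log2 fold of -2.42 ± 0.12 (SD, 2 mice with 1 shared control). Of 281 and 280 chromosome 15 genes, 4 were lower in each mouse.

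Most Plec reads came from 1 region in each mouse. In mouse 1 it was chr15:76189336-76191045, which contains the exon printed above, with 19 HA reads beside 74 of wild type. In mouse 2 it was chr15:76193041-76196175, with 21 HA and 65 wild-type reads; this was also the region over IgG. The second coding region of each mouse also overlaps Parp10, with 3 HA reads beside 15 of wild type in mouse 1 and 4 beside 16 in mouse 2. A region in mouse 1 that touched no exon held 3 HA and 0 wild-type reads. The 7412-base last exon of Plec and the 3381-base exon before it had no region in any list.

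The 3 genes stood close together over wild type, with mean folds of 0.198 for Macf1, 0.193 for Dst and 0.187 for Plec. These differ by less than the SD between mice, and the counting intervals of Dst and Plec hold the fold of Macf1 in both mice. With the pooled ratio as the scale they were 0.352, 0.343 and 0.333, which is above 0.25-fold. They differed in depth, in an order that depended on the measure. Summed over exon regions, wild-type reads per kb of exon came to 178 and 178 for Macf1. Dst had 46.4 and 22.7, and Plec 96.8 and 62.5. Dst had 7 and 4 such regions, and Plec 2 in each mouse. By the median region the values were 226 and 230 for Macf1, 295 and 113 for Dst, and 103 and 61.7 for Plec. Relative to the other regions of their own chromosome, the folds over wild type were 0.200 and 0.175 for Macf1, 0.203 and 0.162 for Dst and 0.208 and 0.176 for Plec.

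Macf1, Dst and Plec rank 14th, 4th and 177th in exonic length among 21951 protein-coding genes. Of the genes with at least 15 kb of exonic sequence, 109 and 100 had enough reads over wild type, and their median folds were 1.18 and 1.09, close to the medians of all genes of 1.15 and 1.10. At 0.25-fold or less were 5 of these in each mouse, or 4.59% and 5%, the 3 plakins among them. Over all genes that share was 1.4% and 1.44%, and in the classes of shorter protein-coding genes it ran from 1.06% to 1.30% in mouse 1 and from 0.520% to 1.79% in mouse 2. Long genes as a class thus centred near the median. The plakins, chosen with these reads known, are 3 of the 5 very low genes in each mouse. The larger share is therefore no result about long genes. Across protein-coding genes, which are not independent replicates and share the libraries, Spearman's coefficient of exonic length and fold was 0.0550 and 0.0195 over wild type and 0.209 and 0.216 over IgG.

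**Figure D4:**
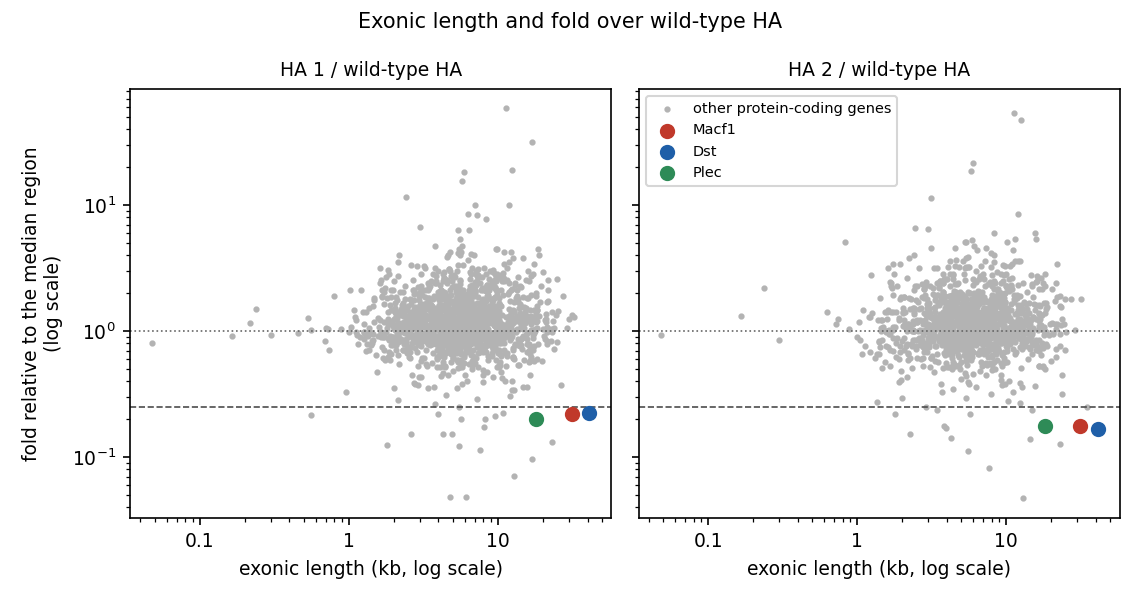
Fold over wild-type HA against exonic length in kb (both log axes) for protein-coding genes with at least 20 reads in mouse 1 (left) and mouse 2 (right); the dashed line is at 0.25-fold and the dotted line at 1. Macf1, Dst and Plec lie at the long end below the dashed line, while the other long genes centre near 1.

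Few genes were high over IgG and low over wild type on the scale of the list medians. Of 327 genes with at least 20 reads in all 4 lists, 9 were at 2-fold or more over IgG in both mice, and 3 of those 9 were below 1-fold over wild type in both: Macf1, Agap2 and D430019H16Rik. Macf1 was the 1 gene of the 9 at 0.25-fold or less in both. On the pooled scale Macf1 itself did not meet these limits, at 1.96- and 1.45-fold over IgG and at 0.366- and 0.338-fold over wild type, and on the scale of its chromosome it was at 0.820-fold over IgG in mouse 2. The other genes of the 327 that low in both mice were Actn1 and Myh9, which encode the actin crosslinker alpha-actinin and a non-muscle myosin heavy chain. Below 1-fold over wild type were 36.6% and 38.6% of all genes in the single lists, so 3 of 9 is no result about rarity. Genes named in this paragraph were picked after their values were seen, and 14 of the 327 lie off chromosomes 12 and 15.

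The genes nearest to the plakins were found by Euclidean distance of log2 folds, over the lists in which a plakin had at least 20 reads. For Macf1, over 4 lists and 326 candidates, the nearest was Akap6, which encodes a kinase anchoring protein, at a distance of 1.01, with log2 folds over IgG of 0.81 and 1.47, and over wild type of -1.47 and -2.09. Then came Clmn (distance 1.89), Agap2 (1.92), Fgfr2 (1.95) and A230087F16Rik (1.95). For Dst, over 3 lists and 718 candidates, Tmem38b (0.443) was first and Macf1 (0.568) was second, ahead of Gm23548 (0.624), a small gene that lies inside Macf1 and shares its regions, Akap6 (0.849) and Cmss1 (1.11). For Plec, over 3 lists and 462 candidates, Macf1 (0.496) was first, then Mapk8ip2 (0.497), Akap6 (1.00), Clmn (1.04) and A230087F16Rik (1.69). Macf1 was among the 2 nearest genes of both other plakins. The plakins were chosen with the reads of all 4 lists known, so this nearness is a description and no support for a shared behaviour.

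Relatives and binding partners of the plakins differed among themselves. The other plakins Dsp, Evpl, Ppl and Eppk1, which belong to junctions and epithelia, had no region in any list (0 of 4). Of the spectrin-repeat genes, those with at least 20 reads over wild type lay below the median in 3 of 3 cases in mouse 1 and 1 of 1 in mouse 2, beside 36.6% and 38.6% of all genes. The gene of mouse 2 was not among those of mouse 1, so these counts show no agreement between the mice. Sptan1 and Sptbn1, which encode spectrin chains of the membrane skeleton, were at 13.2- and 8.23-fold over IgG in mouse 1 and at 16.2- and 10.2-fold in mouse 2, without a region over wild type. Sptbn4, a spectrin of axon initial segments and nodes, had 515 HA and 1730 wild-type reads in mouse 1, or 0.211-fold, and no region over wild type in mouse 2.

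Among 13 genes for microtubule-end partners, 3 had enough reads over wild type in each mouse, with a median of 0.832- and 1.25-fold beside 1.15 and 1.10 over all genes. Clasp1, which encodes a plus-end stabilising protein, was at 2.53- and 1.86-fold over wild type. Camsap2, for a minus-end binding protein, was at 0.779- and 1.25-fold, and Dctn1, for the large dynactin subunit, at 0.832- and 0.676-fold. All 3 lay well above the folds of the plakins. Of 10 intermediate filament genes, Synm, for the filament protein synemin, was the 1 with a region: 275 HA and 3 IgG reads in mouse 1, which is 31.7-fold (10.7 to 155), and 6 HA and 1 wild-type reads over wild type.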

How the data were processed

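RNA immunoprecipitation libraries of mouse hippocampus were sequenced with 50 cycles, single-end, per the labels' protocols. TopHat and TopHat2 with GRCm38 and mm10 are named in the submitters' processing notes, and per the file headers rtracklayer 1.28.9 wrote the region lists. What called the regions was not given in the sources used here. The deposited lists hold, among other values, the read counts of the HA and the control library per region, unscaled, and the authors' score, p-value and adjusted p-value. Counting did not use a stated strand rule, so genes that overlap cannot be told apart.

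From these, reads were summed over a gene's unique regions (Dst carries 2 gene identifiers) and scaled by the list's median region ratio. Genes with at least 20 reads in both libraries together were compared, and 3 counts stood in for a control of 0. Intervals at the 95% level were checked on counts simulated from the binomial model they assume. That checks the calculation and cannot show how well they hold for these libraries. Exons came from GENCODE M21, which is on GRCm38. No test was made: each list pairs 1 library with 1 control, the wild-type control is shared, and the reads chose the genes. The labels do not say that samples came from separate animals, so the spread may be technical.

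The genes, the related gene lists and the rules were chosen with earlier results of these data known. Named were Macf1, Dst and Plec, up to 4 genes of each related list by HA reads, and the 5 genes nearest each plakin; 1 gene of a related list is not reported here. The scale from the same chromosome, the regions found in all lists, the regions no other gene overlaps and the pooled scale without its largest control region were added after seeing the data. Amino acid sequences were not used here. Python 3.11.15, pandas 2.3.3, numpy 2.4.6 and scipy 1.17.1 were used.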

Additional observations from a re-analysis of the deposited data

How the results depend on the processing

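Of 88 alternative values, 54 stayed within a set limit, 34 moved further and 0 of the means changed sign. The limit was the SD over the mice, or the counting interval where 1 mouse had a value. For counts of genes and regions it was a fixed factor and no measure of spread. Some of the 54 were fixed in advance and are no check. Leaving out 1 of 2 mice always stays within their SD. All Macf1 regions touched an exon, so the setting with only such regions repeated its values. For single mice, Macf1 over IgG in mouse 2 fell to 0.820-fold on the scale of its own chromosome, and Dst over wild type in mouse 1 rose to 1.18-fold with only regions at an adjusted p below 0.05.

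As mean log2 folds, Macf1 over IgG was 0.75 on the pooled scale, 0.76 on that scale without its largest control region, 2.23 without scaling, 1.07 with the median from regions of at least 50 reads, 0.99 from all regions and 0.48 on the scale of chromosome 4. Dst over IgG was 2.36 without scaling. Over wild type, Macf1, Dst and Plec were -1.51, -1.55 and -1.59 on the pooled scale, -1.83, -1.87 and -1.91 without its largest control region, -1.68, -1.72 and -1.76 without scaling, and -3.18, -3.21 and -3.26 with the median from all regions. Plec was -2.28 with regions of at least 50 reads. With only regions at an adjusted p below 0.05, Dst was -0.93 and Plec, in mouse 1 alone, -0.50. The cause was not tested. Leaving out 1 mouse gave 1.39 to 1.62 for Macf1 over IgG, and -2.49 to -2.18, -2.58 to -2.16 and -2.50 to -2.33 for Macf1, Dst and Plec over wild type.

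The 106 genes at 2-fold or more over IgG in mouse 1 became 47 with at least 50 reads, 272 with all genes and 64 on the pooled scale. The 63 of mouse 2 became 199 with all genes and 26 on the pooled scale. The 27 and 24 genes at 0.25-fold or less over wild type became 10 and 7 on the pooled scale. Regions of mouse 1 with identical coordinates in mouse 2, rather than any overlap, over wild type numbered 16 rather than 32 for Macf1, 0 rather than 2 for Dst and 0 rather than 1 for Plec. With the length from gene start to end, the mean Spearman coefficient was 0.274 over IgG and 0.0925 over wild type. Dst and Plec rest on few reads. No paired analysis was possible because no result comes from a test; the folds over IgG are already ratios within a numbered pair, and the wild-type group has 1 sample.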
